A study of Mus musculus with 8 samples.

Results

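Amino acid transporters are membrane carriers that move amino acids into and out of cells, and 10 of them were examined in rib chondrocytes with and without the cartilage microRNA gene *Mir140*. They were *Slc7a1*, *Slc7a2*, *Slc7a5*, *Slc7a6*, *Slc7a7*, *Slc7a11*, *Slc3a2*, *Slc38a1*, *Slc38a2* and *Slc1a5*, which are 10 of the 52325 gene identifiers listed in each library. The genes were chosen by name with the genotype differences of these same 8 libraries already known. Their TPM (a transcript level scaled for transcript length and for the total of the library) and fold changes are therefore given as a description, with no p-value. Where the number of them called in a fit over all genes is given, it describes that fit and is not evidence for the genes. All 10 passed the filter on low values, set at 0.5 TPM or more in at least 4 libraries.

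RNA was sequenced from costal chondrocytes, the cartilage cells of the ribs, released with collagenase from mice 7 d old. Of the 8 libraries, 4 came from *Mir140*-null mice and 4 from wild-type mice, all of lines backcrossed onto C57BL/6J. The number of backcross generations is not stated. The null allele was made by cutting out the *Mir140* locus with Cas9 and a pair of guide RNAs in zygotes of mixed C57BL/6 and CBA/ca origin, and wild-type and null lines were derived from heterozygotes after backcrossing. The null mice lack all microRNAs of the locus, in every tissue. The labels number the replicates and do not say whether each came from its own mouse, so the spread between libraries may be partly technical.

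Cells import the essential amino acids they need for protein synthesis, and chondrocytes do so while secreting large amounts of collagen and proteoglycan. Cationic carriers of the *Slc7* family bring in arginine and lysine. Other *Slc7* proteins, called light chains, work only when joined to a heavy chain, the glycoprotein encoded by *Slc3a2*, and exchange one amino acid for another. *Slc38* and *Slc1a5* proteins bring in glutamine and small neutral amino acids together with sodium. Shortage of amino acids activates the transcription factor ATF4, which is known to raise many carrier genes and aminoacyl-tRNA synthetase genes through a sequence called CARE.

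The library labels could not be checked by the deleted gene itself, since its transcript was listed at 0 TPM in every wild-type library and in 3 null libraries, and at 8.86 TPM in null replicate 2. Chondrocyte identity was checked by 11 marker genes, of which *Col2a1*, the main cartilage collagen, stood at 34418 to 61630 TPM and *Acan*, the main cartilage proteoglycan, at 447 to 1085 TPM in all 8 libraries. The summed TPM of the 11 markers was 60144 to 75339 in the wild-type and 44531 to 60817 in the null libraries, and 1 of the 11 was called higher (*Acan*) and 3 lower (*Col9a1*, *Col11a1* and *Hapln1*) in the null. *Mir140*-null replicates 1 and 2 stood apart from the other 6 libraries. *Col1a1*, a collagen of fibroblasts and perichondrium, was at 47.8 and 50.1 TPM in them, against 1326 and 898 TPM in null replicates 3 and 4 and 793 to 1544 TPM in the wild-type. The summed TPM of 5 fibroblast and perichondrium markers was 506 and 529.6 in these libraries, 4152 and 2845 in null replicates 3 and 4 and 2505 to 4795 in the wild-type. They also reached 0.5 TPM for fewer genes, 15800 and 16056 against 16991 to 17950 in the other libraries. The share of TPM from mitochondrial transcripts was 4.06% to 6.99% in wild-type and 8.41% to 10.1% in null libraries. No marker of red blood cells, muscle, endothelium, osteoblasts or fat cells was called among the 3, 2, 4, 2 and 1 that limma could test, and 1 muscle marker was lower at an unadjusted p under 0.05. Some sums of these markers were also low in null replicates 1 and 2. For endothelium the sum was 3.41 and 4.85 TPM in them, 27.1 and 15.0 in null replicates 3 and 4 and 5.56 to 20.9 in the wild-type. For osteoblasts it was 2.63 and 2.29, 9.84 and 9.33, and 3.02 to 12.0 TPM. For red blood cells it was 303 and 163, 1125 and 819, and 393 to 1059 TPM. For muscle and fat cells null replicate 2 lay within the range of the wild-type and null replicates 3 and 4. Log2 fold changes of the 10 carriers and of the other carriers and genes named with them are therefore given with and without null replicates 1 and 2. In RNA from a mixture of cells, fewer cells of a type and less RNA per cell cannot be told apart.

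*Mir140* encodes miR-140-5p and miR-140-3p, and the latter occurs as a pair of isomiRs that start at neighbouring bases. The mature sequence of miR-140-3p.2 is that of RefSeq (GRCm38.p6, chr8:107551288-107551308, plus strand), and miR-140-3p.1 starts 1 base later. They are shown here because the isomiRs pair with messenger RNAs through the seed, bases 2 to 8, printed in capitals.
miR-140-3p.2: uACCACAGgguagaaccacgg
miR-140-3p.1: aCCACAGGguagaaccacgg
The study's table of predicted targets was made with TargetScanHuman, so it lists human genes, which were matched here to mouse genes by symbol. Among the 10 carriers it holds *Slc7a1* for miR-140-3p.2, *Slc7a6* for miR-140-3p.1 and *Slc38a2* for miR-140-5p. Whether the same targets are predicted from mouse 3'UTRs was not tested. Sites of miR-140-5p were not searched for, in *Slc38a2* or in any other carrier. The search covered the seeds of the printed isomiRs alone. The longest annotated 3'UTR of each carrier was searched for the reverse complement of each seed (CTGTGGT or CCTGTGG, a 7m8 site), for its last 6 bases followed by A (TGTGGTA or CTGTGGA, a 7a1 site), and for both together (an 8mer). Because the seeds overlap by 6 bases, a site of one isomiR shares most of its letters with that of the other. A site for miR-140-3p.2 was found in 6 of the 10 carriers and a site for miR-140-3p.1 in 5, against 24.9% and 30.3% of 12981 tested genes with a 3'UTR. The 3'UTRs of the carriers had a median of 2402 bases, against 1157 bases for these genes, and a longer 3'UTR has more positions for a site.

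The sites of the predicted targets *Slc7a1* and *Slc7a6*, and the only 8mer among the 10 carriers, in *Slc38a1*, are printed with the site in capitals and 10 bases on either side (GRCm38, from GENCODE M21 transcripts).
Slc7a1, miR-140-3p.2 7m8, chr5:148331351-148331377, minus strand: cctcttgtagCTGTGGTgcctttgcct
Slc7a1, miR-140-3p.2 7a1, chr5:148327451-148327477, minus strand: aaagctgtttTGTGGTAcattgtgtca
Slc7a6, miR-140-3p.2 7m8, chr8:106196663-106196689, plus strand: gcccaaaaggCTGTGGTcgcagccacc
Slc7a6, miR-140-3p.1 7a1, chr8:106197472-106197498, plus strand: atccatggtgCTGTGGAgcccttgaaa
Slc38a1, miR-140-3p.2 8mer, chr15:96574424-96574451, minus strand: tccatagtttCTGTGGTAattcactgta
The sites of *Slc7a1* lie 1073 and 4973 bases into a 3'UTR of 5030 bases, the latter 51 bases from its end. No site of either isomiR was found in the 3'UTRs of *Slc7a7* (344 bases), *Slc3a2* (841 bases) or *Slc38a2* (2735 bases). *Slc38a2* is a predicted target of the other microRNA of the locus, whose sites were not searched for. A match to a seed is a description of the letters and does not show that a microRNA binds.

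The CARE core TGATGNAA was searched on both strands of RefSeq promoters (GRCm38.p6, 250 bases before to 50 after the start of transcription), which were listed for 6 of the 10 carriers. It was found for *Slc7a11* and *Slc7a7* and in 4.51% of all 27025 genes of the table. The cores are printed in capitals, because ATF4 target genes are examined further on.
Slc7a11, core 66 bases before the start, strand of the gene: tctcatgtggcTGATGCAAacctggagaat
Slc7a11, core 47 bases before the start, opposite strand: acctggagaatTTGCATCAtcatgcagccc
Slc7a7, core 141 bases before the start, strand of the gene: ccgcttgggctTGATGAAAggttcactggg
Slc7a7, core 1 base before the start, strand of the gene: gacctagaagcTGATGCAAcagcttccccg
The windows were chr3:50443564-50443863 for *Slc7a11* and chr14:54417895-54418194, the first of the starts listed, for *Slc7a7*, both on the minus strand. The *Slc7a7* core that begins 1 base before this start runs past it. Of the other *Slc7a7* windows, chr14:54417653-54417952 held this same core, 243 bases before its start. The windows chr14:54417630-54417929, chr14:54410154-54410453 and chr14:54409423-54409722 held none. The listed promoters of *Slc7a1*, *Slc7a6*, *Slc3a2* and *Slc38a2* held no such core in this window.

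In wild-type chondrocytes, *Slc3a2*, the shared heavy chain, had by far the highest level of the 10 carriers at 2246 ± 117 TPM (SD, n = 4), rank 63 of all genes listed. *Slc7a5*, *Slc1a5*, *Slc38a2* and *Slc7a1* followed at 149.6 ± 29.8, 101 ± 7.69, 79.9 ± 6.17 and 42.6 ± 11.7 TPM, and no 2 neighbours in this order had overlapping libraries. *Slc7a6* at 12.3 ± 3.55, *Slc7a2* at 11.7 ± 4.01 and *Slc7a7* at 7.17 ± 1.76 TPM came next, and each overlapped its neighbour. *Slc38a1* and *Slc7a11* were lowest at 2.58 ± 0.445 and 2.41 ± 0.655 TPM and overlapped each other. Among 50 amino acid carriers, the 10 and 40 others, *Slc3a2*, *Slc7a5*, *Slc1a5* and *Slc38a2* held ranks 1 to 4 in the wild-type, and the 10 together made up 86.0% to 89.1% of the TPM of all 50. Most of this was *Slc3a2*, which alone made up 82.42% to 85.75% of the sum of the 10. The 9 carriers other than *Slc3a2* summed to 358 to 484 TPM in the wild-type, and the 40 others to 335 to 398 TPM.

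The order was different in the *Mir140*-null libraries. *Slc3a2* stayed highest at 2928 ± 407 TPM (SD, n = 4), but *Slc1a5* at 224 ± 63.9 TPM stood above *Slc7a5* at 172 ± 24.2 TPM, with overlapping libraries. *Slc7a2* moved from rank 17 to rank 6 of the 50 carriers, at a level (68.6 ± 15.0 TPM) that overlapped that of *Slc7a1* (69.6 ± 10.5 TPM). *Slc38a1*, rank 32 in the wild-type and 31 in the null, became the lowest of the 10 at 3.90 ± 0.816 TPM. The summed TPM of the 10 carriers was 2433 to 2755 in the wild-type and 3041 to 4223 in the null libraries. The 9 carriers other than *Slc3a2* summed to 409 ± 54.7 TPM in the wild-type and 720.5 ± 116 TPM in the null, and the libraries of the genotypes did not overlap.

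**Figure D1:**
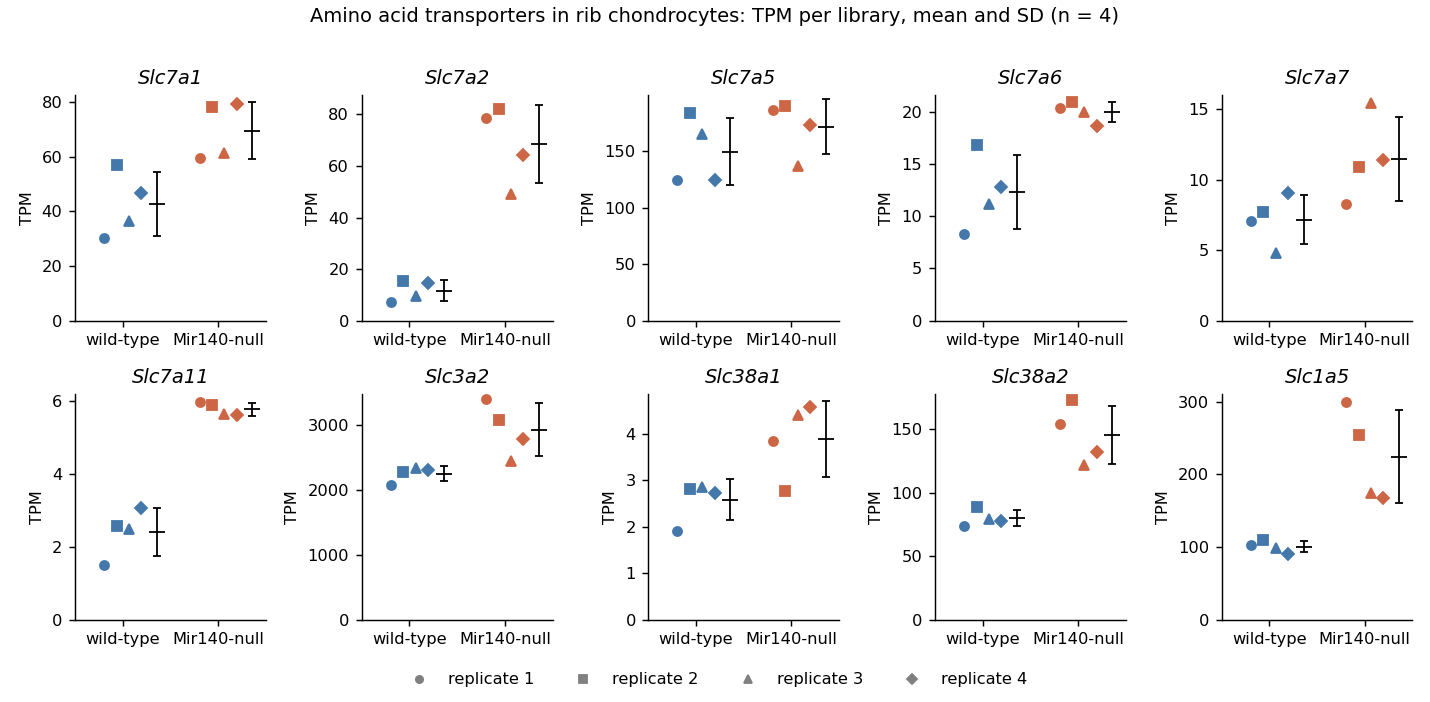
TPM of the 10 amino acid transporters in each library, 1 panel per gene with its own linear axis from 0; blue points are wild-type and orange points *Mir140*-null libraries, the shape gives the replicate number, and the bar beside them is the mean with its SD (n = 4). *Slc7a2* has the largest ratio of means of the 10 (7.21 to 15.6 against 49.2 to 82.2 TPM), and the points of *Slc7a5*, *Slc7a7* and *Slc38a1* overlap between genotypes.

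Genotypes were compared by limma on log2(TPM + 1) over 17177 genes, where a called gene has a two-sided p, adjusted over all of them by the Benjamini-Hochberg method, under 0.05. Of the 10 carriers, 6 were called higher in the null (10.5% of all genes tested), none was called lower (6.40% of all genes tested; for the carriers, 0 also at an unadjusted p under 0.05) and 4 were not called. The 4 libraries of the genotypes did not overlap for 7 carriers, each higher in the null (15.7% of all genes tested). The median log2 fold change of the 10 was 0.71, against -0.01 over all genes tested. Without null replicates 1 and 2, *Slc7a2*, *Slc38a2* and *Slc1a5* were called higher (2.08% of all genes tested), in a fit that compares 4 libraries with 2. *Slc7a1* and *Slc7a6* were called with all libraries or without wild-type replicate 2, but not without any 1 of the other 7 libraries, and *Slc3a2* was called only without null replicate 3 among these fits. Since the genes were chosen with this contrast known, nothing is read from these counts. Among all called genes 62.0% were higher, but scaling the libraries to the median ratio of genes at a mean of 5 TPM or more made it 38.5%. The median log2 fold change of all genes moved by -0.10 under this scaling. It left 4 carriers called higher, without *Slc7a1* and *Slc7a6*, where 1094 of all 17177 genes tested were called higher. Each of the 10 had a log2 fold change above 0 under every scaling tried.

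**Figure D2:**
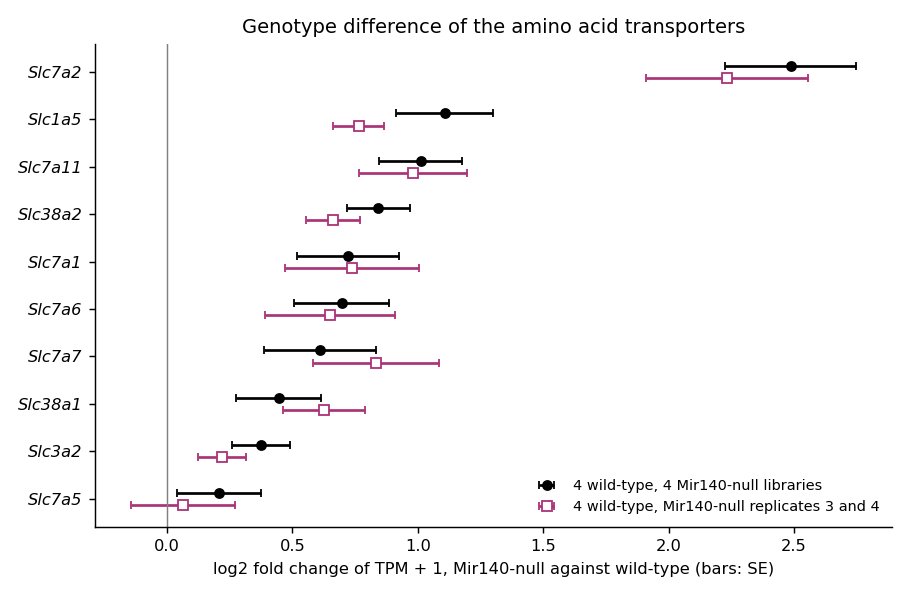
Log2 fold change of TPM + 1 in *Mir140*-null against wild-type libraries for the 10 transporters (x axis), with bars of 1 SE from limma; black circles use all 8 libraries and open squares leave out null replicates 1 and 2. All 20 estimates lie above 0, from 0.21 for *Slc7a5* to 2.49 for *Slc7a2* with all libraries and from 0.06 to 2.23 without the 2 libraries.

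*Slc7a2*, which encodes a carrier of arginine and lysine known to be inducible (CAT2; chr8:40862396-40922308, GRCm38, plus strand), had the largest log2 fold change of the 10. It stood at 7.21, 15.6, 9.46 and 14.5 TPM in wild-type replicates 1 to 4 and at 78.6, 82.2, 49.2 and 64.4 TPM in null replicates 1 to 4. Every null library was above every wild-type library, and the lowest null library was null replicate 3. The null mean was 5.87 times the wild-type mean, and the log2 fold change was 2.49 ± 0.26 (SE), or 2.23 ± 0.32 without null replicates 1 and 2. The 3'UTR of *Slc7a2* (5774 bases) held 4 sites of the 7a1 kind, 3 of which belong to miR-140-3p.1 and 1 to miR-140-3p.2, and the gene is not in the table of predicted targets.

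*Slc7a1*, the widely expressed carrier of arginine and lysine (CAT1; chr5:148327410-148399904, minus strand) whose 3'UTR holds the sites of miR-140-3p.2 printed above, stood at 30.3, 57.0, 36.5 and 46.6 TPM in the wild-type and at 59.5, 78.1, 61.5 and 79.1 TPM in the null. The genotypes did not overlap, but the highest wild-type library, replicate 2, and the lowest null library, replicate 1, were close. The ratio of the means was 1.63 and the log2 fold change 0.72 ± 0.20 (SE), and 0.74 ± 0.27 without null replicates 1 and 2. With any 1 of the 8 libraries left out it lay between 0.58 and 0.87.

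*Slc7a3*, the third cationic carrier and not among the 10, stood at 20.1 to 37.7 TPM in the wild-type and 29.4 to 41.6 TPM in the null libraries and was not called (log2 fold change 0.42 ± 0.20, adjusted p = 0.172 from limma; 0.33 ± 0.27 without null replicates 1 and 2). The 3 cationic carriers summed to 57.6, 110.3, 73.1 and 89.1 TPM in the wild-type and 178, 199.5, 140.1 and 185 TPM in the null. *Slc7a2* made up 12.5%, 14.1%, 12.9% and 16.3% of that sum in the wild-type and 44.1%, 41.2%, 35.1% and 34.8% in the null. *Slc7a1* made up 49.96% to 52.6% of it in the wild-type and 33.4% to 43.9% in the null. Neither share overlapped between the genotypes, but both are parts of the same sum, so a larger share of *Slc7a2* leaves less for *Slc7a1*. Both genes were chosen with their genotype differences known.

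**Figure D3:**
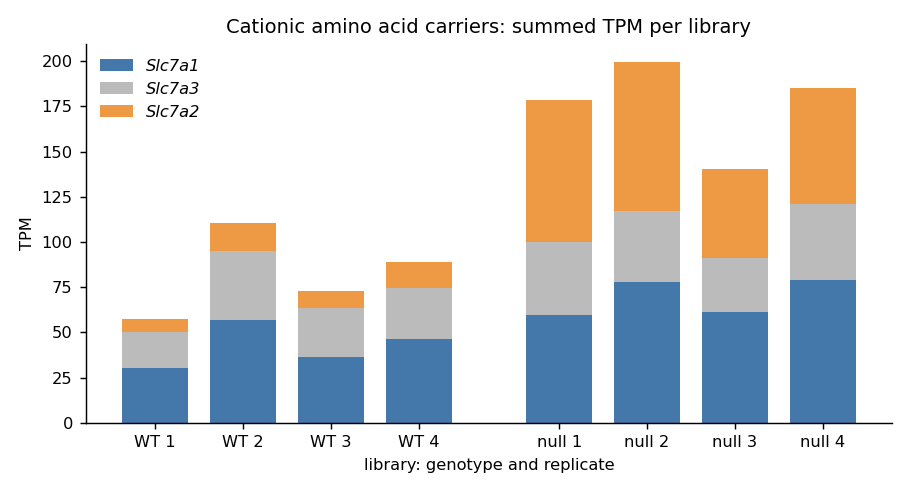
Stacked TPM (y axis, from 0) of the 3 cationic amino acid carriers in each of the 8 libraries (x axis; WT, wild-type; null, *Mir140*-null), with *Slc7a1* at the bottom, *Slc7a3* in the middle and *Slc7a2* on top. The *Slc7a2* part grows from 12.5% to 16.3% of the bar in the wild-type to 34.8% to 44.1% in the null libraries.

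*Slc3a2* (chr19:8706882-8723369, minus strand), the heavy chain that brings the light chains to the cell surface, stood at 2075, 2271, 2335 and 2303 TPM in the wild-type and at 3406, 3071, 2451 and 2783 TPM in the null. The genotypes did not overlap, and null replicates 1 and 2 were the highest. The null mean was 1.30 times the wild-type mean, with a log2 fold change of 0.37 ± 0.12 (SE). The log2 fold change was 0.22 ± 0.10 without null replicates 1 and 2 and 0.46 without null replicate 3. *Slc3a2* was present at 13.4 ± 2.08 TPM per TPM of the 4 light chains *Slc7a5*, *Slc7a6*, *Slc7a7* and *Slc7a11* in the wild-type and at 14.0 ± 0.946 in the null (SD, n = 4), and these ratios overlapped.

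*Slc7a5* (LAT1; chr8:121881150-121907694, minus strand), which exchanges glutamine for leucine and other large neutral amino acids, made up 87.1% ± 2.77 of the light chain TPM in the wild-type and 81.9% ± 3.37 in the null. It stood at 125, 184, 165 and 125 TPM in the wild-type and at 187, 189.8, 137 and 173 TPM in the null. The genotypes overlapped, and null replicate 3 lay below 2 of the wild-type libraries. The log2 fold change was 0.21 ± 0.17 (SE), and 0.06 ± 0.21 without null replicates 1 and 2. *Slc7a5* had the smallest log2 fold change of the 10 in both fits.

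*Slc7a6* (y+LAT2; chr8:106168857-106198706, plus strand), which exchanges cationic for neutral amino acids, stood at 8.30, 16.8, 11.2 and 12.8 TPM in the wild-type and at 20.3, 20.96, 20.0 and 18.6 TPM in the null. The null libraries lay close together and all above the wild-type, where replicate 2 was highest. The ratio of the means was 1.63 and the log2 fold change 0.70 ± 0.19 (SE), and 0.65 ± 0.26 without null replicates 1 and 2. With any 1 library left out it lay between 0.54 and 0.85.

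*Slc7a11* (xCT; chr3:49892526-50443614, minus strand), which imports cystine for the synthesis of glutathione in exchange for glutamate, stood at 1.51, 2.57, 2.49 and 3.07 TPM in the wild-type and at 5.96, 5.89, 5.64 and 5.60 TPM in the null. The null libraries differed little from each other and none overlapped with the wild-type. The null mean was 2.39 times the wild-type mean, and the log2 fold change, which the added 1 TPM makes smaller for a gene at this level, was 1.01 ± 0.16 (SE). It was 0.98 ± 0.22 without null replicates 1 and 2. Its promoter holds a pair of CARE cores, printed above.

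*Slc7a7* (y+LAT1; chr14:54369442-54417780, minus strand), a light chain known from gut, kidney and macrophages, stood at 7.07, 7.72, 4.83 and 9.05 TPM in the wild-type and at 8.24, 10.9, 15.5 and 11.4 TPM in the null. The genotypes overlapped, since wild-type replicate 4 was above null replicate 1, and the log2 fold change was 0.61 ± 0.22 (SE). Without null replicates 1 and 2 the log2 fold change was 0.83 ± 0.25. Of 10 macrophage and myeloid markers, 6 could be tested, 1 was called higher (*Cd14*) and 2 lower (*Lyz2*, *Itgam*). The markers summed to 38.6 to 63.8 TPM in the wild-type and 71.5 to 135 TPM in the null, most of it *Cd14* in the null (38.9 to 116 TPM). *Cd68*, also of the list, stood at 20.0 to 37.0 TPM in the wild-type and 16.0 to 29.4 TPM in the null. *Ptprc*, *Adgre1* and *C1qa* were at or under 0.590, 0.169 and 0.107 TPM in every library, and the other 5 markers were at or under 2.67 TPM. The part of such cells in the level of *Slc7a7* was not tested.

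*Slc1a5* (ASCT2; chr7:16781340-16798274, plus strand), which brings in glutamine and other neutral amino acids with sodium, stood at 103, 109, 99.0 and 91.1 TPM in the wild-type and at 299.8, 255, 175 and 168 TPM in the null. The genotypes did not overlap, and null replicates 1 and 2 stood well above null replicates 3 and 4. The means differed 2.23-fold and the log2 fold change was 1.11 ± 0.19 (SE). It was 0.76 ± 0.10 without null replicates 1 and 2. For each TPM of *Slc7a5*, with which it works in the exchange of glutamine for leucine, there were 0.83, 0.59, 0.60 and 0.73 TPM of *Slc1a5* in the wild-type and 1.6, 1.3, 1.3 and 0.97 TPM in the null, without overlap.

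*Slc38a2* (SNAT2; chr15:96687392-96699730, minus strand), a sodium-coupled carrier of small neutral amino acids known to rise in cells short of amino acids, stood at 73.7, 88.4, 79.6 and 78.1 TPM in the wild-type and at 154, 173, 122 and 132 TPM in the null. The lowest null library was above the highest wild-type library, and null replicates 1 and 2 were again the highest. The means differed 1.82-fold and the log2 fold change was 0.84 ± 0.13 (SE). It was 0.66 ± 0.11 without null replicates 1 and 2.

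*Slc38a1* (SNAT1; chr15:96571418-96642913, minus strand), the related glutamine carrier whose 3'UTR holds the 8mer printed above and 2 other sites of miR-140-3p.2, stood at 1.92, 2.82, 2.86 and 2.73 TPM in the wild-type and at 3.84, 2.77, 4.40 and 4.59 TPM in the null. The genotypes overlapped through null replicate 2. The log2 fold change was 0.44 ± 0.17 (SE), and 0.63 ± 0.16 without null replicates 1 and 2.

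The carriers differed in how they varied within a genotype. Wild-type replicate 2 was above the wild-type mean for all 10 carriers on the log2(TPM + 1) scale, and wild-type replicate 1 for 2 of them. In the null, replicates 1 and 2 were above the mean for 7 and 8 carriers and replicates 3 and 4 for 3 and 4. As a description over these 8 libraries, which include the 2 that stand apart, the deviations from the genotype means were most alike for *Slc7a1* and *Slc7a6* (Pearson's r = 0.82), *Slc7a2* and *Slc7a6* (0.81) and *Slc7a1* and *Slc7a2* (0.78). They were least alike for *Slc7a7* and *Slc3a2* (-0.69), and 35 of the 45 pairs had an r above 0. Neither the share of all genes above the mean in each library nor the r of other gene pairs was computed. Nothing particular to the carriers is therefore read from these numbers.

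For 7 of the 10 carriers, all except *Slc7a1*, *Slc7a7* and *Slc38a1*, null replicates 1 and 2, in which *Col1a1* was low, were both above null replicates 3 and 4, in which *Col1a1* was at the level of the wild-type. The gap was wide for *Slc1a5*, at 299.8 and 255 TPM against 175 and 168 TPM, and narrow for *Slc7a11*, at 5.96 and 5.89 against 5.64 and 5.60 TPM. Null replicates 3 and 4 were in turn above all 4 wild-type libraries for 9 of the 10 carriers, *Slc7a5* being the exception. The share of all genes in either order was not counted, and the 10 were chosen with this contrast known, so nothing is read from these counts. Of the 5 fibroblast and perichondrium markers 1, *Dcn*, was called lower in the null. The part of these cells in the size of the differences was not tested, nor that of the other cell types whose markers were low in null replicates 1 and 2.

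**Figure D4:**
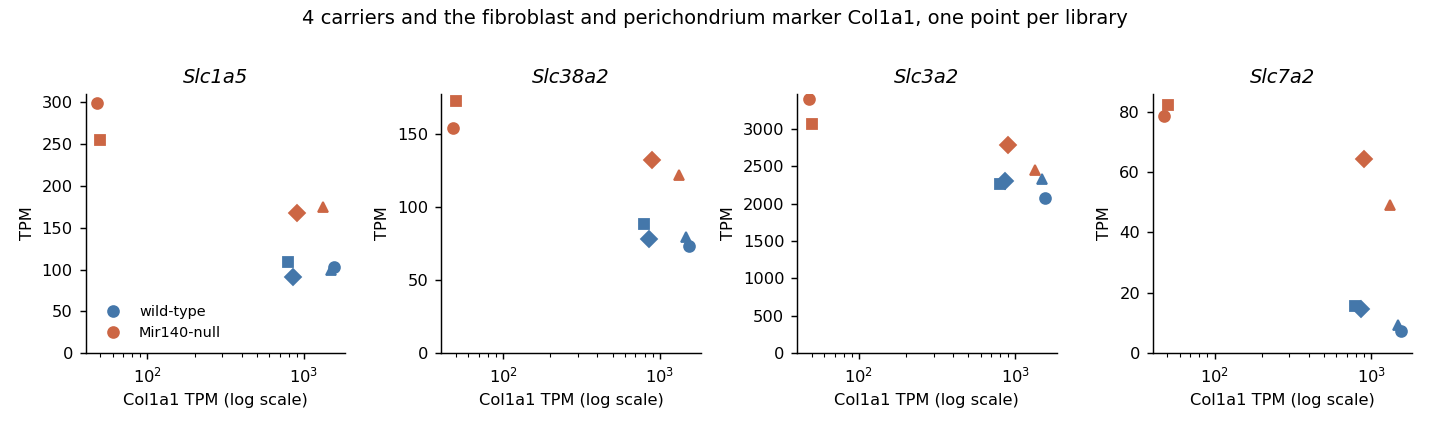
TPM of *Slc1a5*, *Slc38a2*, *Slc3a2* and *Slc7a2* (y axes, linear from 0) against TPM of *Col1a1* (x axes, log scale), 1 point per library, blue for wild-type and orange for *Mir140*-null, with the shape giving the replicate as in the plot of TPM by library. Null replicates 1 and 2 lie at the left at 47.8 and 50.1 TPM of *Col1a1*, and null replicates 3 and 4 lie above the wild-type points at like levels of *Col1a1*.

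The 40 other amino acid carriers included genes called in either direction. These carriers and the lists described after them were also chosen with earlier results of these data known. Their counts and p-values are therefore a description and not independent evidence. Of 31 that passed the filter, 5 were called higher and 2 lower, where 10.5% and 6.40% of all genes tested were, and their median log2 fold change was 0.01. Called higher were *Slc1a1*, a carrier of glutamate and aspartate (4.10 ± 1.47 against 13.8 ± 1.72 TPM, log2 fold change 1.57 ± 0.21, adjusted p = 0.00651 from limma), and *Slc6a9*, a glycine carrier (10.3 ± 4.27 against 42.3 ± 15.2 TPM, log2 fold change 1.96 ± 0.34, adjusted p = 0.0115 from limma). *Slc6a9* is listed as a predicted target of miR-140-3p.2. *Slc38a7*, a lysosomal glutamine carrier, and *Slc7a8*, a light chain at 0.177 to 1.14 TPM, were also called higher, with log2 fold changes of 0.72 ± 0.13 and 0.50 ± 0.12 (adjusted p = 0.0145 and 0.0267 from limma). The fifth was *Sfxn1*, the mitochondrial serine carrier (6.18 ± 0.562 against 9.03 ± 0.962 TPM, adjusted p = 0.0343 from limma), which is named to complete the count after its values were seen. The carriers called lower were *Slc38a6* (19.3 ± 1.13 against 12.9 ± 2.43 TPM, log2 fold change -0.56 ± 0.14, adjusted p = 0.0355 from limma) and *Slc38a3* (19.1 ± 2.10 against 11.4 ± 3.41 TPM, log2 fold change -0.74 ± 0.21, adjusted p = 0.0446 from limma), relatives of *Slc38a1* and *Slc38a2*. Of the other predicted targets among these carriers, *Slc6a6* (miR-140-5p) and *Slc36a4* (miR-140-3p.1) had log2 fold changes of -0.01 ± 0.21 and 0.01 ± 0.11, *Slc25a29* (miR-140-3p.1) had -0.37 ± 0.14 and was not called, and *Slc7a14* (miR-140-3p.1) at 0.141 to 0.541 TPM was not tested. None of the 31 was called in either direction once null replicates 1 and 2 were left out, when 7 were higher and 2 lower at an unadjusted p under 0.05 in limma (2833 and 1449 of all 17177 genes tested). Their log2 fold changes were then 1.43 for *Slc1a1*, 1.62 for *Slc6a9*, 0.79 for *Slc38a7*, 0.60 for *Slc7a8*, 0.43 for *Sfxn1*, -0.36 for *Slc38a6* and -0.82 for *Slc38a3*. Those of *Slc6a6*, *Slc36a4* and *Slc25a29* were -0.23, 0.03 and -0.17. The number called higher was 3 without any 1 of wild-type replicates 1, 3 and 4 or null replicates 1 and 4, and the number called lower was 0 without null replicate 1 or any 1 wild-type library and 1 without null replicate 2 or 3.

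Cytosolic aminoacyl-tRNA synthetases, which load amino acids onto transfer RNAs, were higher in the null as far as they were called. Of 20 genes, 9 were called higher and none lower, where 10.5% and 6.40% of all genes tested were, and the median log2 fold change was 0.54. At an unadjusted p under 0.05 in limma 15 were higher and 0 lower, against 3263 and 2558 of all 17177 genes tested. The genotypes did not overlap for 14, all with the null higher, which held for 15.7% of all genes tested. *Gars* for glycine went from 71.8 ± 12.9 to 128 ± 17.3 TPM (log2 fold change 0.83 ± 0.16, adjusted p = 0.0155 from limma). *Hars* for histidine went from 12.9 ± 1.16 to 22.7 ± 4.91 TPM (log2 fold change 0.75 ± 0.16, adjusted p = 0.0205 from limma). *Lars* for leucine and *Rars* for arginine had log2 fold changes of 0.62 ± 0.13 and 0.56 ± 0.12 (adjusted p = 0.0196 and 0.019 from limma). With null replicates 1 and 2 left out none of the 20 was called (9 higher and 0 lower at an unadjusted p under 0.05 in limma, against 2833 and 1449 of all 17177 genes tested). The log2 fold changes of *Gars*, *Hars*, *Lars* and *Rars* were then 0.77, 0.50, 0.57 and 0.50. The number called higher was 1 without wild-type replicate 3 or null replicate 2, 3 without wild-type replicate 4, 5 without wild-type replicate 1, and 4 with scaling to well-expressed genes.

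Genes of the ATF4 and amino acid response went in both directions. Of 22 genes, 8 were called higher and 3 lower, where 10.5% and 6.40% of all genes tested were, and the median log2 fold change was 0.26. *Eif2ak3*, the kinase PERK that halts translation when the endoplasmic reticulum is loaded, went from 12.8 ± 0.861 to 25.7 ± 2.18 TPM (log2 fold change 0.95 ± 0.10, adjusted p = 0.00454 from limma). *Vldlr*, a lipoprotein receptor, *Atf5*, a transcription factor downstream of ATF4, and *Eif4ebp1*, which restrains cap-dependent translation, had log2 fold changes of 1.53 ± 0.27, 0.94 ± 0.18 and 0.72 ± 0.15 (adjusted p = 0.0125, 0.0158 and 0.0179 from limma). The 3 genes called lower encode stress factors, *Ddit3* (CHOP, 517 ± 113 against 231 ± 31.6 TPM, adjusted p = 0.00839 from limma), *Atf3* (2464 ± 895 against 752 ± 171 TPM, adjusted p = 0.00969 from limma) and *Chac1*, which breaks down glutathione (143 ± 7.51 against 91.8 ± 23.5 TPM, adjusted p = 0.0423 from limma). *Atf4* itself, whose protein is controlled mainly by translation, stood at 596 to 683 TPM in the wild-type and 684 to 804 TPM in the null and was not called (log2 fold change 0.18 ± 0.09, adjusted p = 0.192 from limma). *Eif2ak3* was the only gene of the 22 called without null replicates 1 and 2, when 10 were higher and 3 lower at an unadjusted p under 0.05 in limma (2833 and 1449 of all 17177 genes tested). The log2 fold changes were then 0.87 for *Eif2ak3*, 1.49 for *Vldlr*, 0.69 for *Atf5*, 0.65 for *Eif4ebp1*, -1.05 for *Ddit3*, -1.54 for *Atf3*, -0.39 for *Chac1* and 0.09 for *Atf4*, against -1.14, -1.68 and -0.67 for *Ddit3*, *Atf3* and *Chac1* with all libraries. With any 1 library left out, 3 to 6 genes were called higher, 3 of them without wild-type replicate 3, 4 without wild-type replicate 1 or 4 or null replicate 1 or 2, and 5 without wild-type replicate 2 or null replicate 4.

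Of 29 tested enzymes of amino acid metabolism, 5 were called higher and 3 lower, where 10.5% and 6.40% of all genes tested were. Their median log2 fold change was 0.13. The enzymes called higher included *Psat1* and *Shmt2* of serine and glycine synthesis, at 21.1 ± 2.84 against 51.9 ± 16.1 TPM and 40.0 ± 2.88 against 101 ± 34.3 TPM (adjusted p = 0.0122 and 0.0125 from limma). *Gclm*, a subunit of the enzyme that starts glutathione synthesis from the cysteine that *Slc7a11* provides, went from 34.1 ± 5.19 to 72.4 ± 19.1 TPM (adjusted p = 0.0156 from limma). The other subunit, *Gclc*, was lower in the null without overlap and not called (12.9 against 9.16 TPM, log2 fold change -0.46 ± 0.14, adjusted p = 0.0588 from limma; -0.63 ± 0.14 without null replicates 1 and 2), and is named after its values were seen. *Got2*, a mitochondrial aminotransferase, went from 12.9 ± 1.003 to 18.2 ± 1.87 TPM (adjusted p = 0.0321 from limma). *Phgdh*, which starts serine synthesis, was the fifth (20.6 ± 4.61 against 31.3 ± 2.96 TPM, adjusted p = 0.0448 from limma) and is named to complete the count after its values were seen. *Psat1*, *Shmt2* and *Gclm* were all highest in null replicates 1 and 2, as was *Slc1a5*, and without these libraries *Psat1* and *Shmt2* alone were still called, with log2 fold changes of 0.88 ± 0.15 and 0.85 ± 0.10, against 1.22 ± 0.21 and 1.25 ± 0.22 with all libraries. Lower in the null were *Arg2*, an arginase (2.71 ± 0.527 against 1.11 ± 0.564 TPM), *Odc1*, which makes putrescine from the ornithine that arginases release (1003 ± 226 against 534 ± 153 TPM), and the cytosolic *Shmt1* (12.7 ± 1.47 against 7.17 ± 1.34 TPM), with adjusted p = 0.0332, 0.0309 and 0.0169 from limma. Without null replicates 1 and 2 the log2 fold change went from 1.04 to 0.74 for *Gclm*, from 0.46 to 0.39 for *Got2*, from 0.61 to 0.64 for *Phgdh*, from -0.84 to -0.51 for *Arg2*, from -0.93 to -0.57 for *Odc1* and from -0.75 to -0.60 for *Shmt1*. The number called higher was 3 without wild-type replicate 1 or 3 or null replicate 1 or 2. The number called lower was 0 without wild-type replicate 4 or null replicate 2 and 1 without wild-type replicate 1 or 3.

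In the pathway by which amino acids activate the growth kinase mTORC1, 1 gene was called higher and 1 lower of 34 tested, where 10.5% and 6.40% of all genes tested were. At an unadjusted p under 0.05 in limma 4 were higher and 4 lower, against 3263 and 2558 of all 17177 genes tested. The genotypes did not overlap for 8 genes (23.5%, against 25.9% of all genes tested), 5 of them higher in the null. *Mios* was called higher (5.55 ± 0.316 against 8.70 ± 0.738 TPM, adjusted p = 0.0173 from limma) and *Castor2*, an arginine sensor relative, lower (1.74 ± 0.421 against 0.680 ± 0.117 TPM, adjusted p = 0.0163 from limma). The median log2 fold change of the 34 was 0.04. Without null replicates 1 and 2 none was called (3 higher and 2 lower at an unadjusted p under 0.05 in limma, against 2833 and 1449 of all 17177 genes tested). The log2 fold changes were then 0.48 for *Mios* and -0.66 for *Castor2*, against 0.57 and -0.69 with all libraries. *Mios* was not called without wild-type replicate 3 or null replicate 2, and 2 genes were called lower without wild-type replicate 3.

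**Figure D5:**
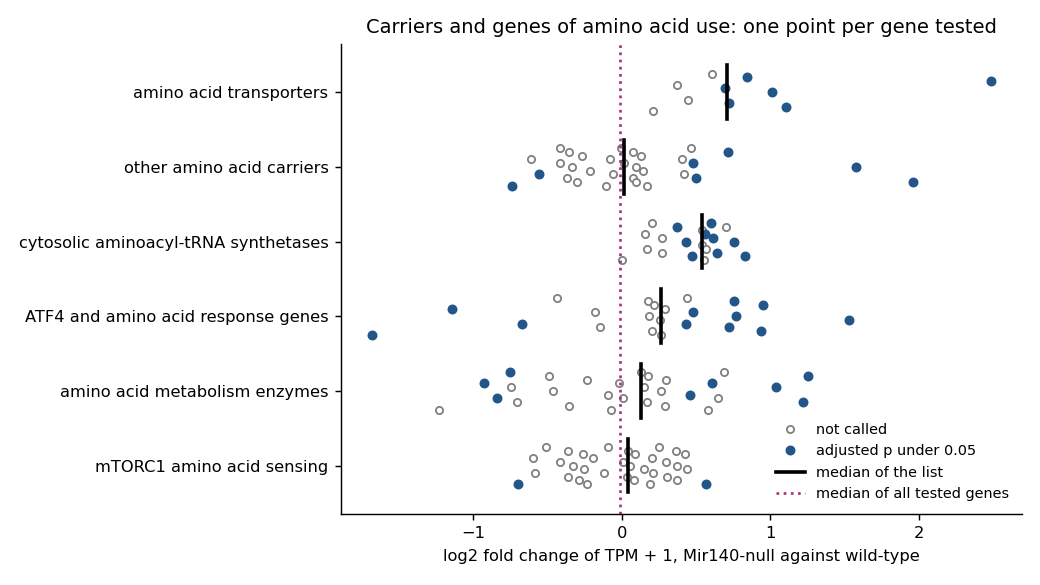
Log2 fold change of TPM + 1 in *Mir140*-null against wild-type libraries (x axis) for each tested gene of the 10 transporters and of 5 lists of related genes, with genes called by limma as filled and the others as open points. Black bars are list medians (0.71, 0.01, 0.54, 0.26, 0.13 and 0.04 from top to bottom) and the dotted line is the median of all tested genes (-0.01). The 10 transporters were chosen with these values known, and the 5 lists with earlier results of these data known.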

How the data were processed

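RNA from costal chondrocytes was sequenced by the authors with a stranded mRNA kit, single-end, in 4 wild-type and 4 *Mir140*-null libraries. The deposited values are TPM, which the authors made with Salmon against the mm10 transcriptome after quality checks with FastQC 0.11.7. TPM sum to a fixed total in each library and hold no read counts, so depth is unknown, and the study's own count test (DESeq2 with RUVSeq factors) could not be fitted.

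Each of the 52325 identifiers was counted once, and 99.8% were annotated by GENCODE M21 (GRCm38). Genes at 0.5 TPM or more in at least 4 libraries were tested on log2(TPM + 1) by limma 3.58.1 (R 4.3.3; trend), two-sided, with genotype as the only term and Benjamini-Hochberg adjustment at 0.05. Python 3.11.15, pandas 2.3.3 and matplotlib 3.10.9 were used for the rest. Labels gave the groups. Replicates are numbered without a stated mouse, so p-values measure only the spread between these libraries. The fit was tested on simulated data.

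The 10 genes and all lists were chosen with earlier results of these data known. Beside the 10 carriers, the text names from each of 5 pathway lists up to 4 genes called higher and up to 4 called lower with the smallest p, and the carriers that are predicted targets. Other genes are named as markers, as parts of a sum or as background. Marker lists covered chondrocytes, myeloid, erythroid, muscle, endothelial, osteoblast, fibroblast and perichondrium, and fat cells.

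The fit was repeated without each library in turn, with the replicate number as a block, with 1 factor from residuals, after quantile normalization or median-ratio scaling, with 0.1 added in place of 1, and with every gene or only genes averaging at least 5 TPM. Leaving out null replicates 1 and 2 together, and median-ratio scaling over genes at a mean of 5 TPM or more, were added after seeing the data.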

Additional observations from a re-analysis of the deposited data

Results flagged for a closer look

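In the wild-type group *Slc38a1* stood at 1.92 TPM in replicate 1, far below the other 3 libraries at 2.73 to 2.86 TPM by Dixon's criterion for a single distant value. The summed TPM of the 11 chondrocyte markers was 60140.0 in wild-type replicate 3, against 73670 to 75340 in the other 3 wild-type libraries, and was distant by the same criterion. Among 36 groups of 4 libraries examined these were the 2 found, and chance gives about 1 in 20 groups.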

How the results depend on the processing

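No log2 fold change of the 10 carriers changed sign under the 17 alternatives (16 for *Slc7a11* and *Slc38a1*, which a mean of 5 TPM leaves out). *Slc7a2*, *Slc38a2* and *Slc1a5* were called in all 17, *Slc7a5* and *Slc7a7* in none, *Slc7a1* in 6, *Slc7a6* in 5, *Slc3a2* in 4, *Slc38a1* under quantile normalization alone, and *Slc7a11* in all of its alternatives except the one without null replicates 1 and 2. These are refits of the same libraries in which the carriers were chosen, so the counts describe the fits and are not evidence for the genes. TPM carry no depth, so the precision of the low genes could not be set against their counts.

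Counts are given as called higher and called lower in the null. With no filter they were 977 and 539 over all 36617 genes, 3 and 0 for other carriers, 3 and 1 for metabolism enzymes, 4 higher for ATF4 genes and 0 lower for mTORC1 genes. A filter at a mean of 5 TPM (9668 genes) gave 605 lower over all genes, 73.1% of the called genes higher, and 0 mTORC1 genes lower. Plain median-ratio scaling gave 1 other carrier lower. Median-ratio scaling over well-expressed genes gave 1094 and 1750 over all genes, so 38.5% of the called genes were higher against 62.0% without scaling, 4 synthetases, 4 ATF4 genes and 3 metabolism enzymes higher, and 3 mTORC1 genes lower. Quantile normalization gave 5 synthetases, 5 ATF4 genes and 3 metabolism enzymes higher. With 1 factor from residuals 2016 genes in all and 7 metabolism enzymes were lower and 2 mTORC1 genes were higher.

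Without null replicates 1 and 2 the counts were 357 and 210 over all genes, 3 higher for the 10 carriers, 0 and 0 for other carriers, 0 higher for synthetases, 1 and 0 for ATF4 genes, 2 and 0 for metabolism enzymes, and 0 and 0 for mTORC1 genes, from 2 null libraries. With 1 library left out at a time, counts ranged from 779 to 1553 higher and 419 to 1214 lower over all genes. They ranged from 4 to 6 higher for the 10 carriers, 3 to 5 and 0 to 2 for other carriers, 1 to 11 higher for synthetases, 3 to 6 and 2 to 3 for ATF4 genes, 3 to 4 and 0 to 4 for metabolism enzymes, and 0 to 1 and 1 to 2 for mTORC1 genes.

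Same-numbered libraries of the genotypes did not deviate together (r = 0.031, 0.016, 0.069 and -0.009 across genes), so the numbers were not taken as pairs. A fit with the replicate number as a block gave 671 and 454 over all genes, 5 higher for the 10 carriers, 2 and 0 for other carriers, 0 higher for synthetases, 3 and 1 for ATF4 genes, 1 and 0 for metabolism enzymes, and 0 and 0 for mTORC1 genes.

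*Slc6a6* and *Slc36a4*, at -0.01 and 0.01, changed sign. *Slc6a6* was at 0.0275 under median-ratio scaling, and at 0.07, 0.01, 0.0039 and 0.17 without wild-type replicates 2 and 4 and null replicates 1 and 3, and ranged from -0.166 to 0.17 with 1 library left out. *Slc36a4* was at -0.10 under scaling over well-expressed genes and at -0.0032 and -0.01 without wild-type replicates 1 and 2, and reached 0.0351 without wild-type replicate 3. Of the values for single genes under these alternatives, 510 kept direction and call, 132 lost the call, 6 gained it and 8 changed sign. The cause of each change was not tested.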
